A study of Mus musculus with 75 samples.

Results

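The samples described here are 18 of the 75 libraries of the series: RNA of cells that the labels call EGC, enteric glial cells, from the Myenteric Plexus of colon and small intestine in mice injected with PBS (phosphate-buffered saline, the vehicle). They were chosen by their labels alone. The 2 h experiment gave 4 colon and 4 small-intestinal libraries, marked WT (wild-type) in their descriptions and given no Gpr37 genotype. The 24 h experiment gave 4 colon and 6 small-intestinal libraries, all labelled Gpr37WT, the wild-type arm of a study of the orphan receptor gene Gpr37. Every mouse of both experiments carried the same eGFP reporter. Animals of both sexes had received 1 PBS injection into the peritoneum and were killed 2 or 24 h later, and the labels give no age. The 2 experiments differ in time, in genotype label and in the table in which the authors deposited them, and these differences cannot be told apart. Each region difference below was therefore taken within its own experiment, and the question was which differences between colon and small intestine repeat.

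At 24 h, 4 mice gave both a colon and a small-intestinal library, and 2 further mice gave a small-intestinal library only. The labels give no mouse number at 2 h, so p-values there measure the spread between libraries. Each single-experiment fit took all groups of its experiment, 16 libraries at 2 h and 37 at 24 h. These included mice given lipopolysaccharide and, at 24 h, Gpr37 knockouts, so the spread is not that of the PBS libraries alone. Total counts ran from 1990744 to 7883251 per library at 2 h and from 5037388 to 28234203 at 24 h. Levels are given as CPM, read counts scaled to library size with TMM factors, and differences are log2 fold changes of colon over small intestine with a standard error (SE) from edgeR's quasi-likelihood fit.

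Enteric glia are the peripheral glia of the gut wall. They derive from the neural crest and lie around the neurons of the myenteric plexus, between the muscle layers, where they take part in motility, barrier function and immune signalling. The gut tube carries a record of its position along the body axis in the Hox genes, transcription factors arranged in 4 clusters. Genes at the 3′ end of a cluster act towards the head and genes at the 5′ end act towards the tail, so the hindgut is known for the use of the high-numbered paralogue groups.

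The labelled cell type was checked against 20 glial markers, and all 20 were measured in both regions at both times. Their summed level ran from 6644 to 18454 CPM in colon and from 9459 to 17574 CPM in small intestine at 2 h. At 24 h it ran from 9927 to 14259 CPM in colon and from 7328 to 24554 CPM in small intestine, so the regions overlapped at both times. Sox10, the transcription factor that defines the lineage, had a log2 fold change of -0.13 ± 0.43 at 2 h and -0.25 ± 0.76 at 24 h. Markers of other cells were present too. Smooth muscle markers summed to between 3269 and 80831 CPM in the 2 h libraries, and fibroblast markers to between 5423 and 45222 CPM in the 24 h libraries. Pancreatic enzyme genes, a list added after the values were seen, reached 13000 and 1988 CPM in 2 h small-intestinal replicates 3 and 4 and 61325 CPM in 24 h colon replicate 2, while no other library exceeded 70.9 CPM. Each comparison was therefore also fitted without these 3 libraries.

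At 2 h, 29 of 13107 genes tested (0.221%) passed an adjusted p (Benjamini-Hochberg over all genes tested) of 0.05. Of these 11 were higher in colon (0.0839% of genes tested) and 18 were lower (0.137%). At 24 h, 21 of 14903 genes (0.141%) passed, with 14 higher in colon (0.0939%) and 7 lower (0.047%). Exactly 5 genes passed at both times, in the same direction, out of 13073 genes tested in both (0.0382%). They were the transcription factor genes Hoxa10 and Hoxa11, the antisense transcript Hoxa11os, the iron-scavenging lipocalin gene Lcn2 and the tetraspanin gene Cd63, and all 5 were higher in colon. They made up 17.2% of the 29 genes at 2 h and 23.8% of the 21 genes at 24 h, and no gene passed at both times in opposite directions. The shared direction depended on the setting. DESeq2, a second tool, gave 36 repeated genes, 17 higher and 19 lower in colon, with all 5 among them. A fit of the 2 compared groups alone gave 21, 8 higher and 13 lower. These held 3 of the 5, not Lcn2 or Hoxa11. In bulk RNA, fewer cells of a type and less RNA per cell cannot be told apart, which holds for every difference below.

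**Figure D1:**
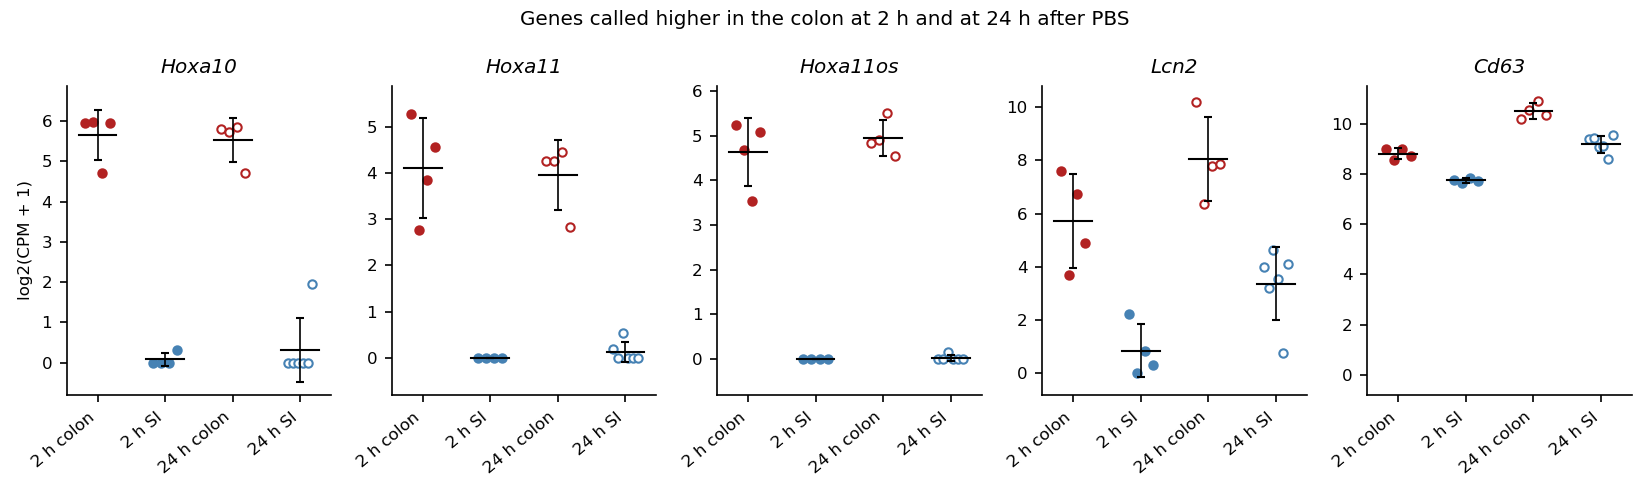
Level as log2(CPM + 1) of Hoxa10, Hoxa11, Hoxa11os, Lcn2 and Cd63 in each of the 18 PBS libraries, by experiment and region (SI, small intestine). Each point is 1 library (filled at 2 h, open at 24 h), with the mean and SD of each group, and for all 5 genes every colon point lies above every small-intestinal point of the same experiment.

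Because same-mouse libraries exist at 24 h, that comparison was also fitted with the mouse as a block. With the block 6 genes passed at 24 h, all higher in colon, and 4 of them were among the 21 without it: Lcn2, the ceruloplasmin gene Cp, the lipopolysaccharide-binding protein gene Lbp and Lyve1. The other 2 were Qpct and the trypsin gene Try4, and pancreatic enzyme genes were high in 24 h colon replicate 2. Lcn2 was then the 1 gene that passed at both times. Among the 4 mice with both regions and without the block, Hoxa11os and Cd63 were the 2 that did, and neither Lcn2 nor Lyve1 was called at 24 h. A joint fit took all 18 libraries together and tested the mean of both region differences. It called 1083 of 13900 genes (7.79%), with 410 higher in colon (2.95%) and 673 lower (4.84%), the shares beside which the joint counts of list members below are to be read. DESeq2 called 498 of 13107 genes at 2 h, 183 of 14903 at 24 h and 1699 of 13900 in the joint fit. Its counts of list members are to be read beside these.

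The calls of single experiments rest on few libraries. When 1 library was left out at a time, the 2 h call on Hoxa10 held in 7 of 8 fits, on Hoxa11os in 7 of 8, on Lcn2 in 3 of 8, and on Hoxa11 and Cd63 in 2 of 8. At 24 h Hoxa11os and Cd63 held in 10 of 10, Lcn2 in 9 of 10, and Hoxa10 and Hoxa11 in 2 of 10. Hoxa10 held at 24 h without colon replicate 4 or small-intestinal replicate 6, and Hoxa11 without colon replicate 4 or small-intestinal replicate 3. Without 2 h small-intestinal replicate 2 no gene passed at 2 h, while 1208 genes had an unadjusted p under 0.05. Without the 3 libraries with pancreatic genes 22 genes passed at 2 h and 11 at 24 h, and 0 passed at both. All 5 of the 2 h calls on the repeated genes were lost without these libraries, as were the 24 h calls on Hoxa10 and Hoxa11, while those on Hoxa11os, Lcn2 and Cd63 held at 24 h. Of the 18 calls on genes named from the 2 h experiment 10 held without them, and of 13 from the 24 h experiment 9. No call changed its direction in these fits, and in the joint fit all 5 genes passed without each of the 18 libraries in turn and without those 3. In the joint fit DESeq2 gave no adjusted p for Hoxa10. Summed markers of neurons, mesothelium and red cells (lower in colon) and of lymphatic endothelium (higher) were also apart between the regions at both times. Sums of smooth muscle and of lymphocytes (25.7 to 63.7 CPM against 6.42 to 20.1 CPM) were higher in every colon library at 2 h, as was that of fibroblasts at 24 h. The values of the other lists are given with each list, and their part in the 5 genes was not tested.

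Some calls of the joint fit also rest on few libraries. Of 126 calls on named genes, 101 held without each library in turn, with Hoxd13 counted on the 13 of 18 fits that tested it. Chrnb4, Foxf1, Tbx2 and Fabp1 held in 4 of 18 such fits, Elavl3 in 5, Igtp in 6, Aldh1a1 and Mfap5 in 7, Bmp4 and Tagln in 8, Cyp26b1 in 10 and Col1a2 in 11. The other 13 of the 25 held in 12 to 17. Col1a2, Elavl3 and Mfap5 were also not called without the 3 libraries with pancreatic genes.

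Hoxa10, a posterior gene of the HoxA cluster, lies on chromosome 6 from 52231197 to 52240854 (GRCm38, minus strand). At 2 h its level was 61.6, 62.2, 25.3 and 60.7 CPM in the colon libraries and 0, 0, 0 and 0.24 CPM in the small-intestinal libraries. At 24 h the colon libraries held 55.4, 52.0, 56.6 and 25.4 CPM, while 5 small-intestinal libraries held 0 and that of mouse 14 held 2.86 CPM. Every colon library held 25.3 CPM or more, and no small-intestinal library more than 2.86 CPM. From 787 counts in colon against 2 in small intestine at 2 h, the ratio was 537, with a 95% exact counting interval of 148 to 4444 that covers counting error only. The log2 fold changes were 8.85 ± 1.26 (adjusted p = 0.0121) at 2 h and 6.52 ± 1.33 (adjusted p = 0.0307) at 24 h, and with so few small-intestinal counts such fitted values depend on the prior count. With the mouse as a block the 24 h value was 7.88 ± 1.37 with an adjusted p of 0.131.

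Hoxa11 and Hoxa11os lie next to Hoxa10 on chromosome 6, Hoxa11 at 52242106 to 52245810 on the minus strand and Hoxa11os at 52244393 to 52249799 on the plus strand. The genes overlap over 1418 bases and share 800 exonic bases, and since the sources used here do not say whether strand was used in counting, their reads cannot be told apart there. Hoxa11 stood at 38.0, 5.78, 13.3 and 22.8 CPM in the 2 h colon libraries and at 0 in all 4 small-intestinal ones. At 24 h it stood at 18.3, 18.3, 21.0 and 6.17 CPM in colon and at 0 to 0.444 CPM, with a median of 0, in small intestine. Against the floor of 3 counts per library, Hoxa11 was at least 25.9-fold higher in colon at 2 h. Its log2 fold changes were 9.60 ± 1.61 (adjusted p = 0.0308) and 7.24 ± 1.41 (adjusted p = 0.031), and the blocked value at 24 h was 8.78 ± 1.28 with an adjusted p of 0.158. The 2 h call on Hoxa11 was lost with same-numbered libraries as a replicate block, and with the compared groups alone.

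Hoxa11os stood at 36.9, 24.5, 10.7 and 32.9 CPM in the 2 h colon libraries and at 0 in all 4 small-intestinal ones. In the 24 h colon it stood at 27.6, 28.9, 44.6 and 22.3 CPM, and in the 24 h small intestine a single count was found over 6 libraries. It was at least 34.0-fold higher in colon at 2 h, and the 24 h ratio of 1983 counts to 1 was 2112 (95% exact counting interval 379 to 83478). Its log2 fold changes were 9.99 ± 1.34 (adjusted p = 0.0121) and 9.97 ± 1.28 (adjusted p = 0.000475). With the mouse as a block the 24 h value was 11.15 ± 0.99 and the adjusted p was 0.055. The same 3 genes were also apart in untreated mice, which share no library with the PBS groups: Hoxa10 by 7.15 ± 0.88, Hoxa11 by 9.48 ± 0.94 and Hoxa11os by 7.07 ± 0.91 on the log2 scale.

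The promoters of 3 posterior Hox genes that were higher in colon are shown to compare their letters. Each is the stretch of 250 bases before a RefSeq start on GRCm38.p6, at chr6:52240855-52241104 (minus strand) for Hoxa10, chr6:52245811-52246060 (minus strand) for Hoxa11 and chr2:74679308-74679557 (plus strand) for the first of the starts listed for Hoxd11. Capitals mark a match, on either strand, to TTTATG, the core of caudal-type homeobox sites, or to TATAAA, the TATA box.
Hoxa10: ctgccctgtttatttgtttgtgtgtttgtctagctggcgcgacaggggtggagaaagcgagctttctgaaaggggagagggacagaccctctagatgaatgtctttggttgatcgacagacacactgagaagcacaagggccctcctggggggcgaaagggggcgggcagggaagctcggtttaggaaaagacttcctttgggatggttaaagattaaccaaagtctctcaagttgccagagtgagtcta
Hoxa11: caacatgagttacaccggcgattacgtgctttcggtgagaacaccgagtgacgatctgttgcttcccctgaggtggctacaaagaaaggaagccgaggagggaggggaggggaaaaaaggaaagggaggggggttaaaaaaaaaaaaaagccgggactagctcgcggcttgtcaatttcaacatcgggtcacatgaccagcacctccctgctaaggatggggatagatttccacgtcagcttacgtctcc
Hoxd11: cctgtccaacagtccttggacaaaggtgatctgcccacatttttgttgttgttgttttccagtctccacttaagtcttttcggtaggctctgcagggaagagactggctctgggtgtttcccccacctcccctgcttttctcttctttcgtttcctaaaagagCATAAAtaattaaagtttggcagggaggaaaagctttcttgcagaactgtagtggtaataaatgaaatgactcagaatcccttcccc
TTTATG lies in 10.8% and TATAAA in 12.4% of 32851 promoter windows of this length. The Hoxd11 window held TTTATG on the opposite strand, 87 to 82 bases before the start, and the Hoxa10 and Hoxa11 windows held neither motif. The window of the other start listed for Hoxd11 held neither, and neither did that of Hoxd10. Those of Hoxa11os and Hoxd13, not shown, held TATAAA. These are matches of letters, not sites.

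The Hox genes were counted by paralogue group. In the joint fit all 5 posterior genes tested (groups 10 to 13) were higher in colon. Their median log2 fold change was 7.62, against -0.01 over all genes tested. They were Hoxa10, Hoxa11, Hoxd10, Hoxd11 and Hoxd13, and the other 7 of the 12 listed had too few counts for the joint fit. In small intestine the 12 summed to at most 0.359 CPM at 2 h and 2.86 CPM at 24 h. Posterior genes could therefore pass the count filter only through colon, which largely set their direction and median beforehand. At 2 h 2 of 5 tested passed and at 24 h 2 of 8. Without the 3 libraries with pancreatic genes 8 of the 12 could be tested jointly and 3 passed, not Hoxd10 or Hoxd13. With the replicate block 4 of the 5 passed, not Hoxd13. Of 13 anterior genes tested (groups 1 to 5), 5 were lower in colon in the joint fit and none higher, with a median of -1.26. None of the 13 passed in edgeR's test at 2 h alone (all 13 values negative, 4 at an unadjusted p under 0.05 and 3 called by DESeq2) or at 24 h alone (10 of 13 negative, median -0.15, 3 at an unadjusted p under 0.05 and 1 called by DESeq2). Of 12 central genes (groups 6 to 9), 2 were higher and 3 lower. The central counts were 1 higher and 2 lower both with the replicate block and without the 3 libraries with pancreatic genes.

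Hoxd11, on chromosome 2, was 0.233, 1.36, 7.34 and 2.76 CPM in the 2 h colon and 0 to 0.12 CPM in the small intestine. In the 24 h experiment it was 6.66, 13.2, 6.92 and 5.69 CPM in colon and 0 in all 6 small-intestinal libraries, which makes it at least 24.1-fold higher. Its joint log2 fold change was 7.37 ± 1.00 (adjusted p = 0.000626). Hoxd10 was 18.9, 0, 16.0 and 14.9 CPM in the 2 h colon, so 1 colon library lay at the small-intestinal level of 0. Its joint value was 7.62 ± 1.51 (adjusted p = 0.00507). Hoxd9, of the central groups, ran from 9.42 to 42.8 CPM over the 8 colon libraries and from 0 to 6.43 CPM over the 10 small-intestinal ones, with a joint value of 4.24 ± 0.71 (adjusted p = 0.00113). Hoxa9 was the other central gene higher in colon, by 5.14 ± 1.36 (adjusted p = 0.0242), with overlap at 2 h. The call on Hoxa9 was lost with the replicate block, and also without the 3 libraries with pancreatic genes, where its adjusted p reached 0.151.

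Hoxc8 ran the other way. It was 0 in all 4 colon libraries at 2 h and 12.4, 4.39, 2.01 and 16.9 CPM in the small-intestinal ones, at least 10.5-fold lower in colon. The 24 h colon held 0, 0, 0.141 and 0 CPM and the 24 h small intestine from 9.74 to 20.5 CPM, with a median of 12.6 CPM. The groups were apart at both times, but the test passed at 24 h (-7.73 ± 1.31, adjusted p = 0.00794) and not at 2 h (-8.44 ± 1.77, adjusted p = 0.0902). With the mouse as a block the 24 h adjusted p was 0.055, and the joint value was -8.42 ± 0.89 (adjusted p = 6.36e-05). The other central genes lower in colon were Hoxc6 (-5.25 ± 1.18, not called with the replicate block or without the 3 libraries with pancreatic genes) and Hoxb6 (-2.19 ± 0.49).

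The 5 anterior genes lower in colon were Hoxa3, Hoxa5, Hoxb5, Hoxc4 and Hoxc5. Hoxb5, a gene tied to the development of the enteric nervous system, was 38.5, 41.8, 16.3 and 29.9 CPM in the 2 h colon and 188, 118, 67.8 and 133 CPM in the 2 h small intestine. The 24 h ranges were 46.6 to 69.3 CPM and 85.0 to 172 CPM. No library of 1 region reached the other at either time, and the joint value was -1.69 ± 0.21 (adjusted p = 0.000137). Hoxa5 gave -1.95 ± 0.26 (adjusted p = 0.000197), Hoxc4 -2.19 ± 0.34 and Hoxc5 -2.91 ± 0.59. Hoxa3 gave -2.81 ± 0.69 and was not called with the replicate block. Of group 2, Hoxa2 (-0.27 ± 0.59) and Hoxb2 (-0.15 ± 0.25) did not pass.

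**Figure D2:**
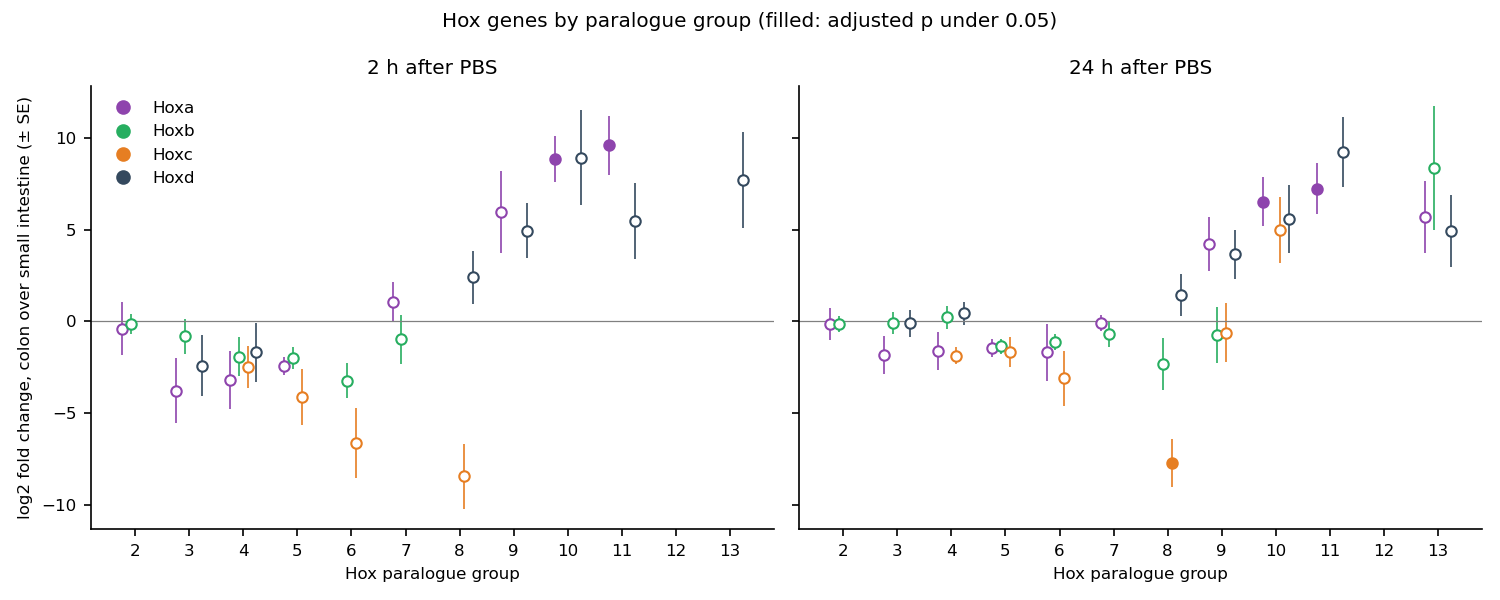
Log2 fold change of colon over small intestine, with SE, for the Hox genes of groups 2 to 13 tested at 2 h (left) and at 24 h (right), by paralogue group and coloured by cluster. Filled points passed an adjusted p of 0.05: Hoxa10 and Hoxa11 above 0 at both times, and Hoxc8 below 0 at 24 h.

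Among 18 other regional transcription factors tested, 4 were higher in colon and 2 lower in the joint fit, where 2.95% and 4.84% of all genes were, with a median of -0.08. The counts were 3 and 1 with the replicate block, and 2 and 1 of 19 tested without the 3 libraries with pancreatic genes. Pbx3, a Hox cofactor, gave 1.40 ± 0.33, Nkx2-3, a homeobox gene of the gut mesenchyme, 0.99 ± 0.23, and the forkhead genes Foxf1 and Foxf2 1.09 ± 0.33 and 2.38 ± 0.50. Tlx2, a homeobox gene of enteric neurons, gave -2.21 ± 0.42, and Tbx2 gave -2.22 ± 0.67. None of the 6 was apart at both times, and Pbx3, Foxf1 and Tbx2 were not called without the 3 libraries with pancreatic genes, nor were Pbx3 and Tbx2 with the replicate block. For Foxf2 the 2 h colon held 17.7 to 48.3 CPM against 0.12 to 3.41 CPM, while at 24 h colon (1.74 to 6.66 CPM) and small intestine (1.34 to 5.13 CPM) overlapped.

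Lcn2 encodes lipocalin-2, a secreted protein that binds bacterial siderophores and is used as a marker of reactive astrocytes in the brain. At 2 h it was 192, 11.9, 106 and 29.2 CPM in colon and 3.75, 0, 0.803 and 0.24 CPM in small intestine. The 24 h colon held 1172, 81.5, 218 and 230 CPM and the 24 h small intestine from 0.721 to 23.8 CPM, with a median of 12.8 CPM. The regions were apart at both times, and the colon libraries differed widely among themselves. The log2 fold changes were 6.06 ± 1.07 (adjusted p = 0.0285) at 2 h and 5.10 ± 0.96 (adjusted p = 0.0106) at 24 h, and 4.42 ± 0.67 with the mouse as a block (adjusted p = 0.0277). The 2 h call on Lcn2 was lost with the compared groups alone. Without the highest library, 24 h colon replicate 1 (mouse 14), the 24 h value was 3.82 and the adjusted p was 0.109. In untreated mice Lcn2 gave 3.47 ± 1.04 with an adjusted p of 0.0682, and the regions overlapped.

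The promoter of Lcn2 is shown to set it beside the Hox windows. The window is chr2:32387740-32387989 on GRCm38.p6, minus strand, and capitals mark matches to the same motifs.
Lcn2: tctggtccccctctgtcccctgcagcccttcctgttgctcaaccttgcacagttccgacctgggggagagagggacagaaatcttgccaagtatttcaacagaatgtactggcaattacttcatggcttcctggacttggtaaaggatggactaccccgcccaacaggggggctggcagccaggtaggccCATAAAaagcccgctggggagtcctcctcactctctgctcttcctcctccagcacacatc
TTTATG matched on the opposite strand at 60 to 55 bases before the start.

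The same 24 h colon library of mouse 14 also held more neutrophil transcripts. The 6 neutrophil markers summed to 144 CPM there, to between 0.0965 and 1.58 CPM in the other 24 h colon libraries, and to at most 3.61 CPM in the 24 h small intestine. In the 2 h libraries, where Lcn2 was also apart, 5 of the 6 neutrophil markers were at 0 throughout each region, and the sum was at most 4.67 CPM. The acute-phase gene Saa3, chosen after its values were seen, reached 1438 CPM in the same library, while the other 24 h colon libraries held 3.65 to 10.3 CPM. The part of these cells in the Lcn2 difference was not tested.

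Cd63 encodes a tetraspanin of late endosomes, lysosomes and exosomes. It was 508, 375, 510 and 417 CPM in the 2 h colon and 218, 198, 230 and 210 CPM in the 2 h small intestine. At 24 h the colon libraries held 1177, 1508, 1923 and 1308 CPM and the small-intestinal ones from 392 to 748 CPM, with a median of 610 CPM. The lowest colon library stood above the highest small-intestinal one at both times. The log2 fold changes were 1.08 ± 0.19 (adjusted p = 0.0284) and 1.31 ± 0.21 (adjusted p = 0.00239). The blocked 24 h value was 1.14 ± 0.20 with an adjusted p of 0.055. Untreated mice gave 1.08 ± 0.21 (adjusted p = 0.00854).

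Each experiment's own calls mostly kept their direction in the other. Of the 29 genes at 2 h, 27 had the same sign at 24 h and 14 of these had an unadjusted p under 0.05, which 6.72% of all genes tested at 24 h had. The exceptions in sign were Foxp1 and Mro. Of the 21 genes at 24 h, 20 had the same sign at 2 h and 15 had an unadjusted p under 0.05, which 10.6% of all genes tested at 2 h had. The exception was Aldh1a2. Over all 13073 genes tested in both, 61.2% had the same sign. Pearson's r of the 2 sets of log2 fold changes was 0.23 and Spearman's rho was 0.34. These are correlations across genes, which are not independent replicates, and the experiments differ in depth. The pancreatic genes, high in 2 h small intestine and in 24 h colon, had median values of -11.70 at 2 h and 11.43 at 24 h.

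**Figure D3:**
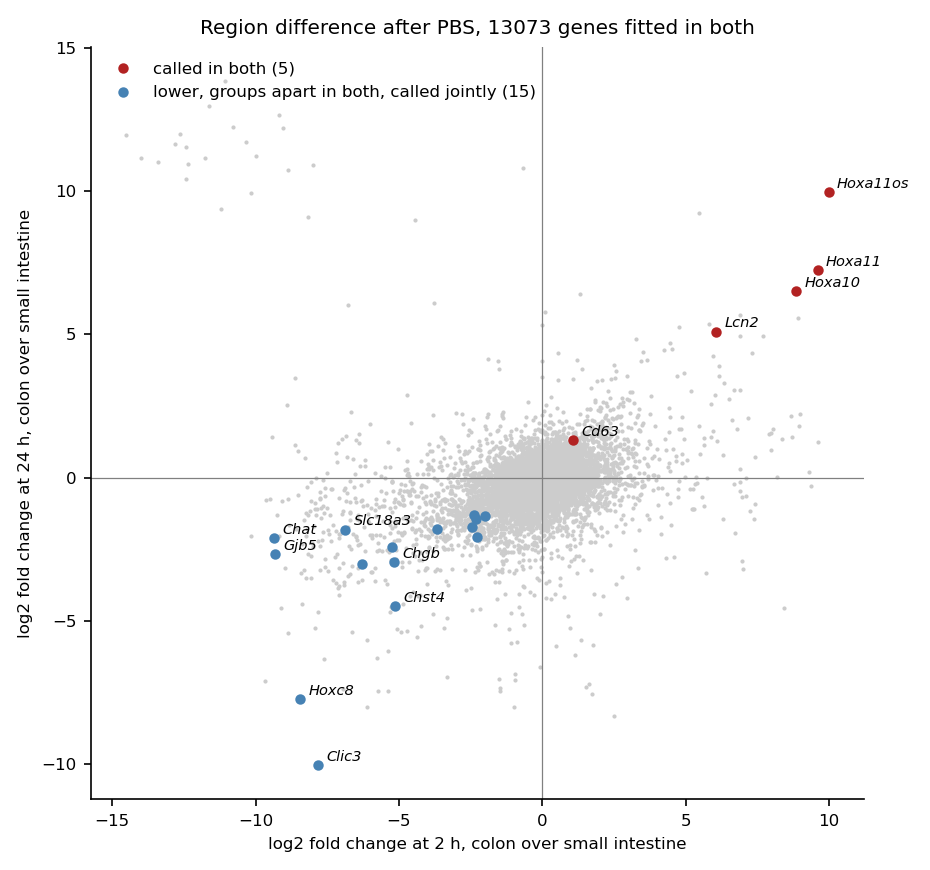
Log2 fold change of colon over small intestine at 2 h (horizontal) against 24 h (vertical), 1 point per gene for the 13073 genes tested in both. The 5 genes called at both times lie in the upper right, and the 15 marked genes in the lower left are those named from the joint fit as lower and apart at both times.

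Neuronal genes were lower in colon. Of 15 neuronal markers, 13 were lower in the joint fit and none was higher, with a median of -2.09 against -0.01 over all genes. At 2 h, 3 of 15 passed (Stmn2, Gap43 and Scg2, held in 3, 7 and 3 of 8 fits leaving out 1 library), and at 24 h none did (5 at an unadjusted p under 0.05, and none with DESeq2), with medians of -2.77 and -1.40. In the 2 h experiment 12 of the 15 had an unadjusted p under 0.05 in edgeR's test, and DESeq2 called 10. Their summed level was 695, 884, 221 and 557 CPM in the 2 h colon and 5743, 5615, 1990 and 4166 CPM in the 2 h small intestine. In the 24 h libraries it was 688 to 1618 CPM in colon and 2186 to 3945 CPM in small intestine. The regions were apart at both times, although glial markers overlapped in the same libraries. In untreated mice the median was -2.84, with 9 of 14 tested lower. The part of neuronal RNA in the other genes lower in colon was not tested.

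Celf4, an RNA-binding protein gene of neurons, was 12.6, 11.2, 4.33 and 8.96 CPM in the 2 h colon and 162, 144, 39.5 and 128 CPM in the 2 h small intestine. The 24 h ranges were 17.0 to 46.3 CPM and 65.8 to 128 CPM. Every colon library was below every small-intestinal one of the same experiment, and the joint value was -2.74 ± 0.30 (adjusted p = 3.95e-05). Chgb, a secretory granule gene, gave -4.08 ± 0.45. Ahi1, a ciliary protein gene, passed at 2 h as well (-2.38 ± 0.43, adjusted p = 0.0312) and gave -1.86 ± 0.20 in the joint fit. Its 2 h call held in 2 of 8 fits that each left out 1 library, and not without the 2 h libraries with pancreatic genes. Prph (peripherin), Elavl4 (HuD), Snap25 and Ret, the receptor for GDNF, gave joint values of -2.40 ± 0.36, -2.37 ± 0.38, -2.21 ± 0.42 and -2.44 ± 0.62. The 2 neuronal markers that did not pass were the neurofilament genes Nefl (-0.33 ± 0.56) and Nefm (-0.72 ± 0.42).

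The 3 cholinergic genes tested that make, load or recapture transmitter were lower in colon. Of 19 neurotransmitter and neuropeptide genes tested, 8 were lower and none higher, with a median of -1.80. Chat, which makes acetylcholine, was 0 in all 4 colon libraries at 2 h and 23.0, 20.0, 8.03 and 17.4 CPM in small intestine, at least 20.1-fold lower. At 24 h Chat was 0.969, 4.42, 4.21 and 1.83 CPM in colon and 7.87 to 16.9 CPM in small intestine, so the regions were apart again. Its joint value was -6.11 ± 0.64 (adjusted p = 5.79e-05). Slc18a3, which loads acetylcholine into vesicles, was 2.80, 2.72, 0 and 0 CPM in the 2 h colon and 252, 216, 35.7 and 154 CPM in the 2 h small intestine. It ran from 10.1 to 50.5 CPM in the 24 h colon and from 64.8 to 134 CPM in the 24 h small intestine. Slc18a3 passed at 2 h (-6.88 ± 1.31, adjusted p = 0.0383), a call that held in 1 of 8 fits leaving out 1 library, and in the joint fit (-4.36 ± 0.52). Slc5a7, the choline transporter, gave a joint value of -4.67 ± 0.61. Slc10a4, a vesicular protein gene of cholinergic and monoaminergic neurons, gave -3.83 ± 0.45.

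Peptide genes varied between libraries. Npy gave -4.58 ± 0.92, Gal -3.81 ± 0.82, Calcb -3.67 ± 0.97 and Tac1 -3.60 ± 0.73 in the joint fit. Gal ran from 71.0 to 497 CPM in colon and from 81.8 to 8250 CPM in small intestine, so its regions overlapped. Vip, of inhibitory motor neurons, did not pass (-1.34 ± 0.78). It was 2.33 to 92.7 CPM in the 2 h colon against 133 to 1431 CPM, and 26.0 to 1668 CPM in the 24 h colon against 42.2 to 284 CPM. Nos1, which makes nitric oxide in the same neurons, gave -1.20 ± 0.37 with an adjusted p of 0.056. Of 17 neuronal receptor and channel genes, 6 were lower and 1 higher, the latter Calcrl (1.12 ± 0.30), with a median of -1.89. Calcrl and Chrnb4 were not called without the 3 libraries with pancreatic genes. The lower ones included the nicotinic subunits Chrna3 (-2.57 ± 0.50) and Chrnb4 (-2.14 ± 0.65), the cannabinoid receptor Cnr1 (-3.17 ± 0.71) and the opioid receptor Oprk1 (-5.06 ± 0.92).

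The region difference itself differed between the experiments for 8 of 13900 genes (0.0576%), in each case with a lower ratio of colon to small intestine at 2 h than at 24 h. P2rx2, an ATP-gated channel of enteric neurons, was 0, 0.34, 0 and 0 CPM in the 2 h colon and 71.1, 124, 22.7 and 60.7 CPM in the 2 h small intestine. The 24 h colon held 17.1, 6.69, 61.1 and 20.4 CPM and the 24 h small intestine 30.8 to 68.8 CPM, so these overlapped. Its region difference was -9.49 ± 1.40 at 2 h and -0.76 ± 1.02 at 24 h, and the difference between these was 8.92 ± 1.13 (adjusted p = 0.003). Dpp6, a potassium channel subunit gene, moved from -7.97 ± 1.38 to -1.71 ± 0.87, with a difference of 6.32 ± 0.91 (adjusted p = 0.00909). The 2 h values rest on 1 and 3 counts in colon, with ratios of 876 (95% exact counting interval 157 to 34628) for P2rx2 and 271 (92.4 to 1315) for Dpp6. The other 6 were Asap3, Chat, Slc4a8, Mtmr7, Krt23 and Chst10, with adjusted p values from 0.0321 to 0.0483. With the replicate block 4 genes passed, among them P2rx2 and Dpp6. These 2 genes were also the ones of the 8 that passed without each library in turn. Asap3, Chat, Krt23 and Chst10 did not pass without the 3 libraries with pancreatic genes. Libraries were shallower at 2 h, where 3 counts stand for up to 1.46 CPM, and that part of the difference was not tested.

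**Figure D4:**
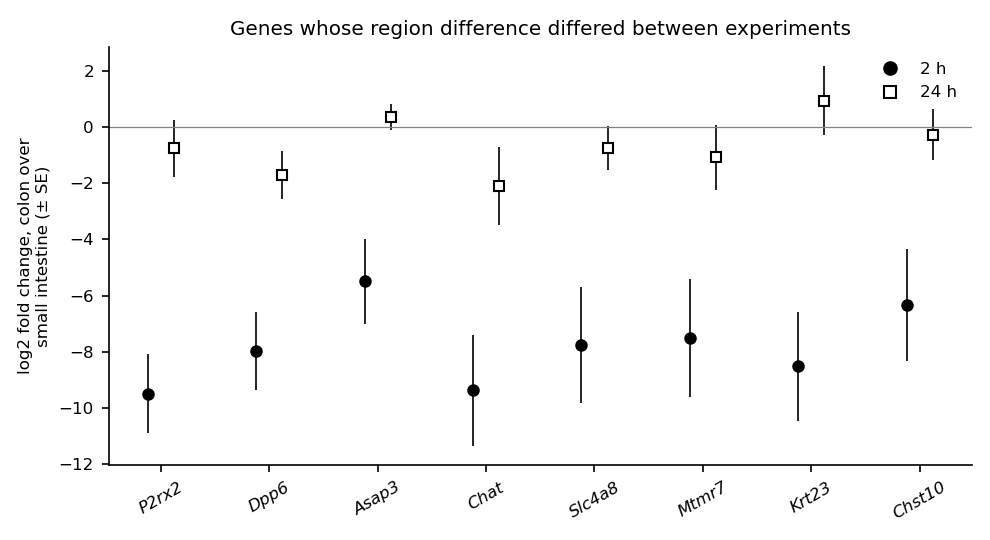
Log2 fold change of colon over small intestine, with SE, at 2 h (filled) and at 24 h (open) for the 8 genes whose region difference differed between the experiments. All 8 values at 2 h lie below those at 24 h, for P2rx2 at -9.49 against -0.76.

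Mesothelial genes, of the serosal lining of the gut, were lower in colon after PBS. All 7 listed markers passed in the joint fit, with a median of -4.73, and all 7 had negative values at each time (medians -4.38 and -5.18), although none passed at 2 h or at 24 h alone by edgeR (6 at an unadjusted p under 0.05 at each time, and 1 and 5 with DESeq2). Their sum was 7.23 to 231 CPM in the 2 h colon against 473 to 1113 CPM, and 40.2 to 121 CPM in the 24 h colon against 700 to 3466 CPM. Msln (mesothelin) was 0, 0, 23.7 and 0 CPM in the 2 h colon and 143, 99.9, 109 and 83.8 CPM in the 2 h small intestine, with a joint value of -4.73 ± 0.88. Upk3b gave -4.35 ± 0.89 and Wt1 -3.50 ± 0.56. In untreated mice the median of the 7 was 0.69 and none passed by either tool, with 1 at an unadjusted p under 0.05. The difference between PBS and untreated mice was not tested.

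Several genes outside the marker list were low in colon beside these markers. Clic3, an intracellular chloride channel gene, was 0 in all 8 colon libraries. It was 2.65 to 9.03 CPM in the 2 h small intestine and 3.00 to 21.8 CPM in the 24 h small intestine, at least 6.86-fold and at least 51.5-fold lower in colon. Rspo1, an R-spondin that strengthens Wnt signalling, was 0, 0, 11.0 and 0 CPM in the 2 h colon and 31.2 to 72.1 CPM in the 2 h small intestine. Its 24 h ranges were 1.16 to 11.7 CPM and 50.4 to 234 CPM, with -4.10 ± 0.80 (adjusted p = 0.0221). That call did not hold with the mouse as a block, in the 4 mice with both regions, without the 24 h library with pancreatic genes, without any 1 of the 4 colon libraries or without small-intestinal replicate 1. Chst4, Gjb5 and Slc9a3r1 gave joint values of -4.84 ± 0.61, -6.38 ± 0.75 and -1.82 ± 0.27. In untreated mice Clic3, Rspo1, Chst4, Gjb5 and Slc9a3r1 overlapped between the regions, with values from -1.13 for Clic3 to 2.27 for Chst4 and adjusted p of at least 0.199. The part of mesothelial RNA in them was not tested. Aldh1a2, which makes retinoic acid, was lower in the 24 h colon (-3.52 ± 0.76, adjusted p = 0.0409, and 0.224 with the mouse as a block) and was 0.60 ± 0.72 at 2 h, where regions overlapped. The 24 h call on Aldh1a2 held in 2 of 10 fits that each left out 1 library, and not with sex as a covariate, without the 24 h library with pancreatic genes or in the 4 mice with both regions.

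**Figure D5:**
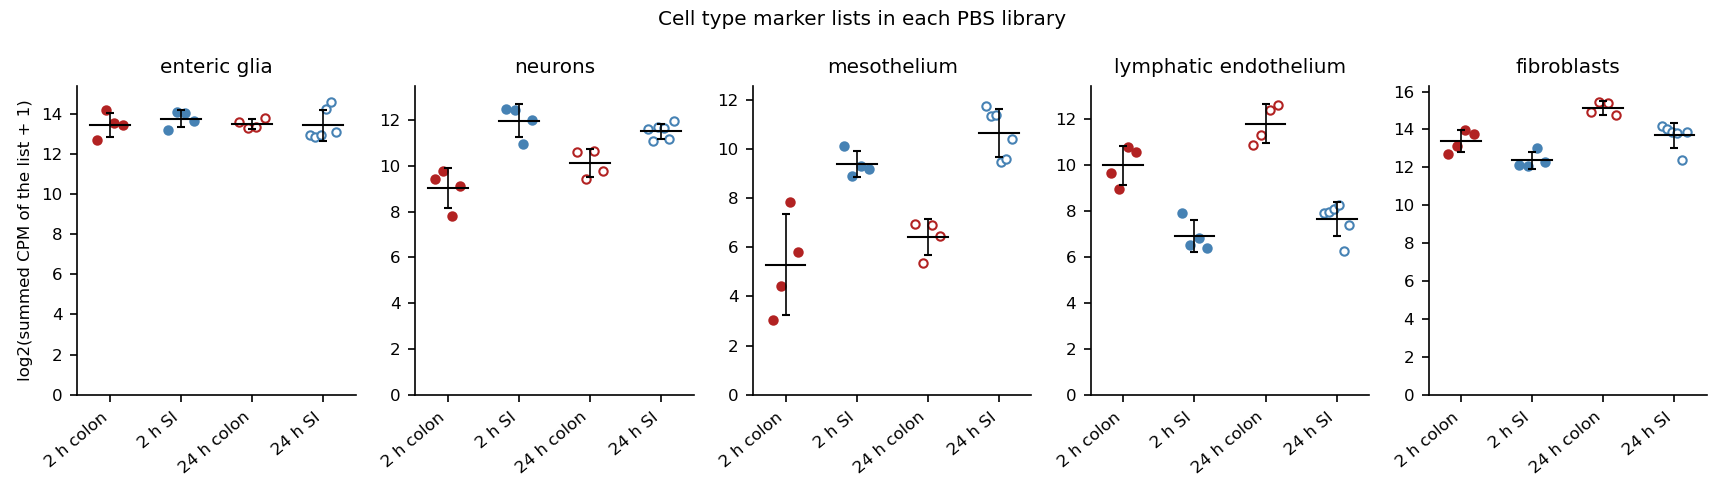
Summed level of 5 cell type marker lists, as log2(summed CPM + 1), in each of the 18 PBS libraries by experiment and region (SI, small intestine), with the mean and SD of each group. Neuronal and mesothelial sums are lower in every colon library than in the small-intestinal libraries of the same experiment, lymphatic sums are higher, and glial sums overlap.

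Lymphatic endothelial genes were higher in colon in the joint fit. This list was added after the values were seen. Of 7 tested, 6 were higher, with a median of 4.34. In edgeR's test of each time alone none passed at 2 h and 1 at 24 h, with 6 at an unadjusted p under 0.05 each time (DESeq2 called 5 and 4). Their sum was 499 to 1752 CPM in the 2 h colon against 83.0 to 239 CPM, and 1857 to 6266 CPM in the 24 h colon against 76.3 to 303 CPM. Lyve1, a hyaluronan receptor of lymphatic vessels and some macrophages, was 56.9, 111, 279 and 236 CPM in the 2 h colon and 15.7, 1.95, 3.21 and 9.58 CPM in small intestine. The 24 h colon held 262, 308, 615 and 865 CPM and the 24 h small intestine 5.93 to 46.6 CPM. Lyve1 passed at 24 h (4.69 ± 0.95, adjusted p = 0.0242), and with the mouse as a block as well (4.22 ± 0.49, adjusted p = 0.00481). The call without the block held in 3 of 10 fits that each left out 1 library. Lyve1 missed at 2 h (4.44 ± 1.04, adjusted p = 0.0807). Prox1, the lymphatic transcription factor, gave 4.87 ± 0.54 in the joint fit. Ccl21a, a chemokine of lymphatic vessels, gave 5.02 ± 0.57. Of the 8 endothelial markers, a list that also holds Prox1, Prox1 and Cldn5 alone were called, and Pecam1 gave -0.04 ± 0.42. Macrophage markers other than Lyve1 did not pass in either direction, with C1qa at -0.53 ± 0.48.

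Fibroblast and matrix genes were higher in colon in the joint fit as well. Of 10 fibroblast markers, 7 were higher in the joint fit and none lower, with a median of 1.13, and their sum at 24 h was 27676 to 45222 CPM in colon against 5423 to 18747 CPM. At 2 h the sums overlapped (6640 to 16223 CPM against 4254 to 8253 CPM). In edgeR's test of each time alone none of the 10 passed at 2 h (5 at an unadjusted p under 0.05, and 2 called by DESeq2) or at 24 h (3 at an unadjusted p under 0.05, and none called by DESeq2). In the joint fit Dpt gave 2.41 ± 0.48, Lum 1.89 ± 0.49 and Col1a1 1.25 ± 0.29. Of 20 matrix genes, 12 were higher and none lower, with a median of 0.99, among them Fn1 (fibronectin, 1.75 ± 0.29) and Mmp2 (a gelatinase, 1.47 ± 0.30). At 2 h alone 1 of 19 matrix genes passed in edgeR's test (14 at an unadjusted p under 0.05, and 6 called by DESeq2), and at 24 h none of 20 (1 at an unadjusted p under 0.05, and none called by DESeq2). Tnc, a matrix glycoprotein of the neural crest and of repair, was 239, 333, 351 and 297 CPM in the 2 h colon and 72.5, 50.7, 123 and 52.5 CPM in the 2 h small intestine. Tnc passed at 2 h (2.03 ± 0.32, adjusted p = 0.0172), held in 4 of 8 fits leaving out 1 library, and overlapped at 24 h. Aspn, a small proteoglycan gene, passed at 2 h (2.71 ± 0.49, adjusted p = 0.0308) and was apart at both times. The call on Aspn held in 2 of 8 such fits and was lost with the compared groups alone. Cspg4 (NG2), of pericytes and glial precursors, passed at 2 h (1.82 ± 0.34, adjusted p = 0.0336). The call on Cspg4 held in 2 of 8 fits that each left out 1 library, and neither with the compared groups alone nor without the 2 h libraries with pancreatic genes.

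Of 12 smooth muscle markers, 3 were higher in the joint fit (Tagln, Cnn1 and Smtn), 6 with the replicate block and none without the 3 libraries with pancreatic genes. The medians were 1.92 at 2 h and 0.03 at 24 h, and none of the 12 passed the test of a difference between the experiments by edgeR or DESeq2. In edgeR's test 6 had an unadjusted p under 0.05, beside 1244 of all 13900 genes. Their sum was 21563 to 80831 CPM in the 2 h colon against 3269 to 18856 CPM, and 1301 to 8561 CPM in the 24 h colon against 1275 to 7489 CPM. Of 6 markers of interstitial cells of Cajal, the pacemaker cells, Kit alone was higher in colon (1.91 ± 0.50), and not without those 3 libraries.

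Red cell genes, another list added after the values were seen, were lower in colon in the joint fit. All 5 passed there with a median of -5.07, none in edgeR's test at 2 h or 24 h alone (5 at an unadjusted p under 0.05 each time, and 4 and 3 called by DESeq2), and their sum was 1.38 to 53.4 CPM in the 2 h colon against 313 to 3040 CPM. The 24 h colon held 57.3 to 442 CPM against 535 to 10660 CPM. Hba-a2 gave -5.46 ± 0.72, and its reads cannot be told from those of its near-identical copy Hba-a1. Epithelial genes gave few calls. Of 10 small-intestinal markers tested, Fabp1 and Fabp2, of enterocytes, were lower in colon, and neither was called with the replicate block, nor Fabp1 without the 3 libraries with pancreatic genes. Of 8 colonic markers, Mptx1 was higher, and it was not called without the 3 libraries with pancreatic genes.

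Of 20 glial markers, 1 was higher in colon and 1 lower in the joint fit, near the shares of all genes (2.95% and 4.84%). Their joint median was -0.24 against -0.01 over all genes, with 15 of 20 values negative. In untreated mice the median was -0.50, with 17 of 20 negative. DESeq2 called 2 higher and 3 lower in the joint fit. With the replicate block 2 were higher and 2 lower, and without the 3 libraries with pancreatic genes 1 was higher and none lower. Col28a1, a collagen gene of peripheral glia, was higher in colon by 2.36 ± 0.41 (adjusted p = 0.00158), with 32.0 to 103 CPM over the colon libraries and 2.54 to 19.4 CPM over the small-intestinal ones. Those ranges did not touch within either experiment. Fabp7, a fatty acid binding protein of immature glia, was lower by 1.27 ± 0.32 on the log2 scale (adjusted p = 0.0174), with overlap at 24 h, and was not called without the 3 libraries with pancreatic genes. Gfap, the intermediate filament that rises in reactive glia, gave 0.64 ± 0.28 with an adjusted p of 0.206. Gpr37, the receptor studied in the series, gave -2.07 ± 0.68 with an adjusted p of 0.0714. It was 0 to 13.9 CPM in the 2 h colon against 30.3 to 44.4 CPM, and 3.18 to 13.3 CPM in the 24 h colon against 6.5 to 17.4 CPM.

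Of 23 inflammatory and acute-phase genes tested, 3 were higher in colon in the joint fit, namely Lcn2, the B cell chemokine Cxcl13 (6.83 ± 1.65) and the alarmin Il33 (1.86 ± 0.36), and 1 was lower, the complement gene C3 (-1.90 ± 0.34), beside 2.95% and 4.84% of all genes. The chemokine genes Cxcl1 (-0.06 ± 1.00) and Ccl2 (0.74 ± 0.73) and the feedback gene Socs3 (-0.13 ± 0.42) did not pass. None of 16 immediate early genes passed in the joint fit by edgeR or DESeq2, and 1 had an unadjusted p under 0.05. Of 17 interferon-stimulated genes, 3 were higher, among them Bst2 (0.55 ± 0.14) and Igtp (0.69 ± 0.20). Cxcl13 and Igtp were not called with the replicate block or without the 3 libraries with pancreatic genes. Lbp, which hands bacterial lipopolysaccharide to its receptor, was 83.0, 93.2, 145 and 139 CPM in the 24 h colon and 13.6 to 24.6 CPM in the 24 h small intestine. It was 51.3 to 81.7 CPM in the 2 h colon against 8.03 to 24.9 CPM. Lbp was apart at both times, and passed at 24 h (2.65 ± 0.45, adjusted p = 0.00561) with and without the mouse as a block. Calhm6, an ion channel gene of immune cells, passed at 24 h (5.79 ± 1.02, adjusted p = 0.00728) on 2.06 to 6.66 CPM in colon (adjusted p = 0.124 with the mouse as a block), and was 0.09 ± 1.23 at 2 h.

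A few named genes came close to repeating. Cp, Fgl2, Lyve1 and Hoxc8 joined the 5 when an adjusted p of 0.1 was used at both times, which gave 9 genes. Cp, the copper-carrying ferroxidase, was 53.3 to 203 CPM in the 2 h colon against 8.77 to 27.1 CPM, and 95.8 to 129 CPM in the 24 h colon against 20.6 to 35.0 CPM. Its log2 fold changes were 2.65 ± 0.60 and 2.14 ± 0.45. Fgl2, a fibrinogen-like immune regulator, gave 2.09 ± 0.43 and 1.94 ± 0.42. Both were named after their values were seen. Counted by the libraries alone, 91 genes were higher in every colon library than in every small-intestinal library at both times (0.696% of 13073) and 146 were lower (1.12%).

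Among the genes called in the joint fit, 401 of the higher ones could be tested in untreated mice, where 384 had the same sign and 100 passed in the same direction. Of the lower ones 602 could be tested, 521 had the same sign, 110 passed in the same direction and Myo5b passed in the opposite one. In that comparison 1.66% of 14090 genes were higher in colon and 1.53% lower.

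Ligands of the Wnt and BMP pathways, which pattern the crypts, gave 1 gene higher in colon and 3 lower of 22 tested in the joint fit, where 2.95% and 4.84% of all genes passed in these directions. Bmp4 was higher in colon (0.80 ± 0.23) and Rspo1 and the BMP antagonists Grem1 (-2.45 ± 0.43) and Nog (-4.23 ± 1.03) were lower. The calls on Bmp4 and Nog were lost with the replicate block, and that on Bmp4 also without a filter on low counts and without the 3 libraries with pancreatic genes. Grem1 was 4.60 to 11.0 CPM in the 24 h colon and 28.7 to 88.9 CPM in the 24 h small intestine. Of 13 retinoid, bile acid and steroid genes, Aldh1a1 (-1.02 ± 0.29), the retinol carrier Rbp4 (-2.82 ± 0.47) and the retinoic acid hydroxylase Cyp26b1 (-3.26 ± 0.91) were lower in colon, and Rbp4 alone of these 3 without the 3 libraries with pancreatic genes. Hsd11b1, which regenerates active glucocorticoid, was higher (2.88 ± 0.50). It was 12.2 to 89.0 CPM in the 2 h colon against 0 to 8.61 CPM, and 186 to 233 CPM in the 24 h colon against 3.2 to 62.6 CPM. Of 15 neurotrophic genes, the receptor gene Ngfr alone passed, lower in colon in the joint fit (-1.95 ± 0.32) and at 2 h (-2.77 ± 0.49, adjusted p = 0.0304). The 2 h call on Ngfr held in 3 of 8 fits leaving out 1 library and was lost with the compared groups alone.

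The share of counts from mitochondrial genes, a sign of RNA and cell state, was 3.74% ± 2.91 (SD, n = 4) in colon and 8.29% ± 1.76 (n = 4) in small intestine at 2 h, with an exact two-sided permutation p of 0.0857 where 0.0286 is the smallest possible. At 24 h the shares were 5.93% ± 3.23 (n = 4) and 7.02% ± 6.23 (n = 6), with an exact permutation p of 0.914 that takes the 10 libraries as independent. Within the 4 mice with both regions colon minus small intestine was 1.31, -0.32, 2.25 and 2.16 percentage points, a mean of 1.35 ± 1.19 (SD) and opposite in sign to the difference of group means (exact sign-flip p = 0.25, where 0.125 is the smallest possible). Small-intestinal replicate 5 held 19.0%, and the difference of group means, -1.09 percentage points, was 1.30 without it and -0.106 without colon replicate 1.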

How the data were processed

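RNA was extracted with a low-input kit and libraries were made with Smart-seq2, a full-length PCR method without molecular identifiers, per the labels' protocols. The submitters' processing notes name GRCm38, Trim Galore 0.4.4, STAR 2.5.3 and DESeq2. The counter, annotation and use of strand are not given in the sources used here. The 2 tables that the authors deposited hold whole-number read counts by gene symbol, not normalized, and 25 symbols of the 24 h table read as dates. Counting intervals and floors cover counting error only.

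Samples were grouped by label. filterByExpr, TMM and edgeR 4.0.16 (R 4.3.3) quasi-likelihood tests were run on all groups of each experiment, and on the 18 PBS libraries joined by symbol. Calls used a two-sided Benjamini-Hochberg adjusted p under 0.05. The members and lists were chosen with earlier results of these data known. Named genes are repeated genes, up to 15 joint calls per direction where fewer than 5 repeated with regions apart at both times, up to 6 calls per direction and experiment, and called or leading members of the 28 fixed lists. Genes outside this rule (Saa3, Cp, Fgl2, Ccl21a, Hba-a2, Myo5b, Foxp1, Mro, Qpct and Try4) were named after their values were seen.

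At 24 h same-numbered libraries come from 1 mouse. Their deviations from the means of their groups correlated at 0.0081 to 0.163 over 4 mice (mean 0.0912, against -0.018 for other pairs). Simulated counts with 200 changed genes were used to test the fits. At a log2 fold of 2 the share recovered was 29.7% at 2 h, 44.8% at 24 h and 68.2% in the joint fit. Replicate pairs differed beyond counting error. Alternatives were the Wald test of DESeq2 1.42.0, RLE factors, no filter, the replicate block, the compared groups alone, sex as a covariate, mice with both regions, and each library left out. Results for a few genes are not reported here.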

Additional observations from a re-analysis of the deposited data

Results flagged for a closer look

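In groups of 4 to 6 libraries, 148 values were examined for a library that stands apart from its group (the gap to the nearest library as a share of the range), and 21 were found. Chance gives about 1 in 20. For Hoxa10 the lowest colon library stood apart at 2 h (0.959) and at 24 h (0.851), and the highest small-intestinal library, the 1 with any counts, at both times (1 and 1). Hoxa11os in the 24 h small intestine (1) was set apart by a library with a single count. Hoxa11 there (0.694) and Hoxc8 in the 24 h colon (1) were set apart by 1 library above the others. Lcn2 (0.864) and Celf4 (0.871) were set apart by 24 h colon replicate 1, mouse 14.

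Of the marker sums, neutrophils stood apart in the 2 h small intestine (1), the 24 h colon (0.99) and the 24 h small intestine (0.653), and MHC class II in the 2 h colon (0.874). Small-intestinal epithelium stood apart in the 24 h colon (0.96), colonic epithelium in the 24 h colon (0.959) and small intestine (0.901), and epithelium of both regions in the 24 h small intestine (0.68). Fibroblasts (0.655) and lymphocytes (0.838) stood apart in the 24 h small intestine. Total counts stood apart in the 24 h colon (0.86, replicate 3 with 28234203 counts) and genes detected in the 24 h small intestine (0.752).

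For 8 genes the region difference at 24 h differed from that at 2 h by the test of the difference itself (edgeR's quasi-likelihood test, Benjamini-Hochberg adjusted p): P2rx2 0.003, Dpp6 0.00909, Asap3 0.0321, Chat 0.0345, Slc4a8 0.0345, Mtmr7 0.0405, Krt23 0.0405 and Chst10 0.0483.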

How the results depend on the processing

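No call on a named gene changed its direction under any alternative run. The 24 h difference in mitochondrial share, not a called value, ran from -2.59 to 1.30 percentage points when 1 library was left out, and was positive without small-intestinal replicate 5 and, at 1.35, within the 4 mice with both regions (a replicate block added after the values were seen). Joint list medians that changed sign included pancreatic 0.92 to -0.35 and retinoid 0.13 to -0.27 with the replicate block, and lymphocyte -0.99 to 1.02 without the pancreatic libraries. Genes passing at 2 h (29) were 498 with DESeq2, 46 without a filter, 46 with the compared groups alone and 106 with the replicate block (54 higher, 52 lower). At 2 h the labels tie no number to a mouse. Same-number r there was 0.00876 to 0.155, with a mean of 0.0836 against -0.0276 for other pairs. The 24 h libraries of 1 mouse gave 0.0081 to 0.163, with a mean of 0.0912 against -0.018. The 2 h values resemble these, but the labels do not say whether the 2 h numbers pair libraries. At 24 h (21) they were 183 with DESeq2, 352 with the compared groups alone, 6 with the replicate block, 11 without the 3 libraries with pancreatic genes and 6 in the 4 mice with both regions. The joint count (1083) was 1699 with DESeq2. Region by experiment (8) gave 181 with DESeq2 and 4 with the block. In untreated mice (449) DESeq2 gave 987 and the block 246. Repeated genes (5, all higher) were 36 with DESeq2 (17 higher, 19 lower) and 21 with the compared groups alone (8 higher, 13 lower). They were 1 with the block, 2 in the 4 mice and 0 without the pancreatic libraries. Leaving out 1 library gave 0 to 51 genes at 2 h, 9 to 17 at 24 h, 761 to 1333 in the joint fit, 2 to 29 by experiment and 0 to 5 repeated. The 0 came without 2 h small-intestinal replicate 2, where 1208 genes had an unadjusted p under 0.05. None of 18 named calls at 2 h held without each library in turn, 6 of 13 at 24 h and 101 of 126 in the joint fit. Among the 101, Hoxd13 was tested in 13 of these fits.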
